A study of Homo sapiens with 6 samples.

Results

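The HOX genes encode homeodomain transcription factors and lie in 4 clusters, HOXA, HOXB, HOXC and HOXD. Genes are numbered from 1 at the 3′ end of a cluster to 13 at its 5′ end, and in the embryo they are switched on in that order in time and along the body axis, with the highest numbers most posterior. In the female tract *HOXA9*, *HOXA10*, *HOXA11* and *HOXA13* are known to mark the oviduct, the uterus, the lower uterus and cervix, and the upper vagina, in that order, and *HOXA10* and *HOXA11* remain active in the adult endometrium, where they are needed for implantation. Several long noncoding RNAs are transcribed between and across these genes, mostly from the opposite strand. The genes were taken by name: every row for a HOX gene of cluster A to D with a number, together with the noncoding RNAs *HOTAIR*, *HOTAIRM1*, *HOTTIP*, *HOXA-AS3* and *HOXA11-AS*. This gave 41 genes of the 17471 in the table, namely 36 protein-coding genes and 5 noncoding RNAs, of which 15 belonged to HOXA, 10 to HOXB, 10 to HOXC and 6 to HOXD. *HOXD1*, *HOXD3*, *HOXD10* and *HOXA-AS2* were not analysed here.

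RNA-seq libraries came from AN3CA, an established human endometrial cancer line from uterus that expresses the transcription factor gene *PAX2*. Cells were transduced with a lentiviral hairpin vector that was empty (shEV, genotype WT, 3 libraries) or carried 1 hairpin against *PAX2* (shPAX2, genotype PAX2 KD, 3 libraries), and both were selected with puromycin. Elsewhere the study's text speaks of a scrambled control, and the labels and methods were followed here. The comparison asks how the transcriptome differed once *PAX2* was knocked down, with a single hairpin in a single line, and the sources do not say whether the 3 libraries of a group were separate cultures, so the p-values may measure technical spread only. The values are TPM, in which reads are divided by gene length and then scaled to the same total in each library. Reads were recovered from the TPM values, except for any factor that all libraries of a gene share, so their totals are lower bounds. These totals ranged from 10730909 to 18221859 reads in shEV and from 19422615 to 29405787 in shPAX2, so depth differed between the groups. *PAX2* had 4.03, 3.66 and 2.74 TPM in shEV and 0.916, 0.723 and 1.17 TPM in shPAX2, a log2 fold change of -1.47 (adjusted p = 0.000294). The labels call the cells epithelial. Against the label, of 12 epithelial markers, 11 were listed, and all but *KRT18* (10.2 to 17.5 TPM) stayed at or under 0.387 TPM in every library, while the mesenchymal filament gene *VIM* was between 3750 and 4410 TPM. The mesenchymal markers were uneven too, with *CDH2*, *THY1* and *FN1* at or under 0.827 TPM and *COL1A1* and *PDGFRB* between 0.664 and 1.48 TPM in every library. The summed epithelial level was 11.2 to 13.5 TPM in shEV and 12.5 to 18.2 TPM in shPAX2, and the summed level of 10 mesenchymal markers, 8 of them listed, was 4896 to 5299 TPM and 4363 to 4557 TPM, with *COL3A1* past the threshold upwards (log2 fold change 2.79) and *COL1A2* downwards (-1.11), and most of that sum was *VIM*. The part of cell makeup in the HOX values was not tested, and in bulk RNA fewer cells of a type and less RNA per cell cannot be told apart.

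Within each gene, values are given below in the order of replicates 1, 2 and 3. Differences are log2 fold changes of shPAX2 over shEV on the log2(TPM + 0.5) scale, which understates changes of genes with few reads, with the standard error (SE) and the Benjamini-Hochberg adjusted p of limma over the 13163 genes with at least 0.5 TPM in at least 3 libraries. A gene was past the threshold at an adjusted p under 0.05 with a log2 fold change of at least 1 in either direction, and rose or fell means an adjusted p under 0.05.

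Promoters are shown for the 3 coding HOXA genes that rose past the threshold, for their neighbour *HOXA13*, which did not pass the test, and for *HOXD13*, the member with the lowest log2 fold change. Each is the 250 bases upstream of a RefSeq transcript start, with letters from RefSeq GRCh38.p14 matched exactly to GRCh37, the build of the files, and read 5′ to 3′ on the gene's strand. Capitals mark the matches of 4 motifs searched on both strands, which were GTCACG (core of the site bound by PAX paired domains), TTTATG (posterior HOX site), TGATTTAT (joint HOX and PBX site) and TATAAA (the box ahead of many start sites). The windows are chr7:27205157-27205406 for *HOXA9*, chr7:27213940-27214189 for an internal start of *HOXA10*, chr7:27224852-27225101 for *HOXA11* and chr7:27239711-27239960 for *HOXA13*, all on the minus strand, and chr2:176957199-176957448 on the plus strand for *HOXD13*.
HOXA9: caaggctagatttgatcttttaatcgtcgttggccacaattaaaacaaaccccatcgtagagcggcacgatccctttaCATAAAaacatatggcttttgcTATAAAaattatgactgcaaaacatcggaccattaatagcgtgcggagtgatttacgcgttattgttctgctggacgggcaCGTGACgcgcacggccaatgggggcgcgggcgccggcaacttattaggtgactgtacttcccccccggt
HOXA10: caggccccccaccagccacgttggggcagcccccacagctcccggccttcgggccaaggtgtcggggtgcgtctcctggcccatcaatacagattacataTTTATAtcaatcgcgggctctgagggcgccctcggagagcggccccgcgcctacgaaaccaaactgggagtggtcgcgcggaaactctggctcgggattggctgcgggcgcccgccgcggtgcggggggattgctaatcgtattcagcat
HOXA11: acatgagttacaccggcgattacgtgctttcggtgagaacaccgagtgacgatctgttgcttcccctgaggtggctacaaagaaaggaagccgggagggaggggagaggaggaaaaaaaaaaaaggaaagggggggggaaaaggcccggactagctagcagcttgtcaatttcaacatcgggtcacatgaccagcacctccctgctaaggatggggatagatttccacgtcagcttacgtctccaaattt
HOXA13: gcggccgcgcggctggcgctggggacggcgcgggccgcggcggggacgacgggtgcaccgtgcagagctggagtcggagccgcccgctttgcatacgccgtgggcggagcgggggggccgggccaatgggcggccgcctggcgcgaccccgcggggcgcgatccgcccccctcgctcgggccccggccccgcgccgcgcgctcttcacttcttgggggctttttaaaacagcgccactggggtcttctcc
HOXD13: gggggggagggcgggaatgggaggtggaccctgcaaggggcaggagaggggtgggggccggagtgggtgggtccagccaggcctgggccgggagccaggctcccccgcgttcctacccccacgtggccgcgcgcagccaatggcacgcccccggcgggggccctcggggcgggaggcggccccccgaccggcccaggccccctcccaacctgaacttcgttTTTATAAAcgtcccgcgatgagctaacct

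The *HOXA9* window held TTTATG on the opposite strand, TATAAA and, on the opposite strand, GTCACG, with matches beginning 172, 150 and 69 bases before the start. The *HOXA10* window shown held TATAAA on the opposite strand 150 bases before its internal start. The window of another *HOXA10* start, which is not shown, held TATAAA 222 bases before that start. *HOXD13* had TATAAA on both strands, in overlapping matches beginning 29 and 27 bases before its start. The *HOXA11* and *HOXA13* windows held none of the 4 motifs. Among members not shown, GTCACG was found for *HOXA7*, which rose, and *HOXD11*, which was not tested. TTTATG was found for *HOXA3*, which fell and also had TATAAA, and for *HOXD8*, which was not tested. Among all 34788 distinct RefSeq promoters of this length, GTCACG was found in 7.90%, TTTATG in 9.65%, TGATTTAT in 0.753% and TATAAA in 10.8%. CpG dinucleotides numbered 20 in the *HOXA9* window, 24 in *HOXA10*, 11 in *HOXA11*, 40 in *HOXA13* and 21 in *HOXD13*, against a median of 11 over all promoters. A match is a description of letters and not of binding. A promoter entry existed for 20 of the 41 genes.

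AN3CA cells expressed genes of all 4 clusters, and the levels were uneven. In shEV, the summed TPM of coding genes was 205 ± 23.5 (SD, n = 3) for HOXA, 110 ± 3.42 for HOXB, 317 ± 16.9 for HOXC and 5.86 ± 0.277 for HOXD. *HOXC10*, known for patterning of the hindlimb region, had the highest level of any member in both groups, with 148, 158 and 177 TPM in shEV and 161, 162 and 162 TPM in shPAX2. It made up 25.2% of the coding HOX TPM in shEV and 23.8% in shPAX2. The noncoding *HOTAIRM1* followed in shEV, and then *HOXA5*, a gene with roles in lung and mammary development. *HOXC6*, *HOXC11*, *HOXB9*, *HOXB13*, *HOXA6*, *HOXC13* and *HOXC9* came next, with means from 29.9 to 36.4 TPM in shEV, each within the summed SDs of its neighbour in that order. HOXD was almost silent apart from *HOXD13*. *HOXD4*, *HOXD9*, *HOXD11* and *HOXD12* had 3 reads or fewer in every library, and *HOXD8* had 2, 3 and 10 reads in shEV and 8, 4 and 5 reads in shPAX2. The low HOXB member *HOXB2* had 1 to 4 reads in shEV and 7 to 23 in the deeper shPAX2 libraries. Its TPM overlapped between the groups, at 0.0706 to 0.465 in shEV and 0.408 to 1.07 in shPAX2. Other low members outside HOXD were *HOXB1*, with 1 read in a single shPAX2 library, *HOXB8*, with 2 to 11 reads, and *HOTTIP*, with 4 to 20 reads. These 9 genes fell below the filter and were not tested, which left 32 members.

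**Figure D1:**
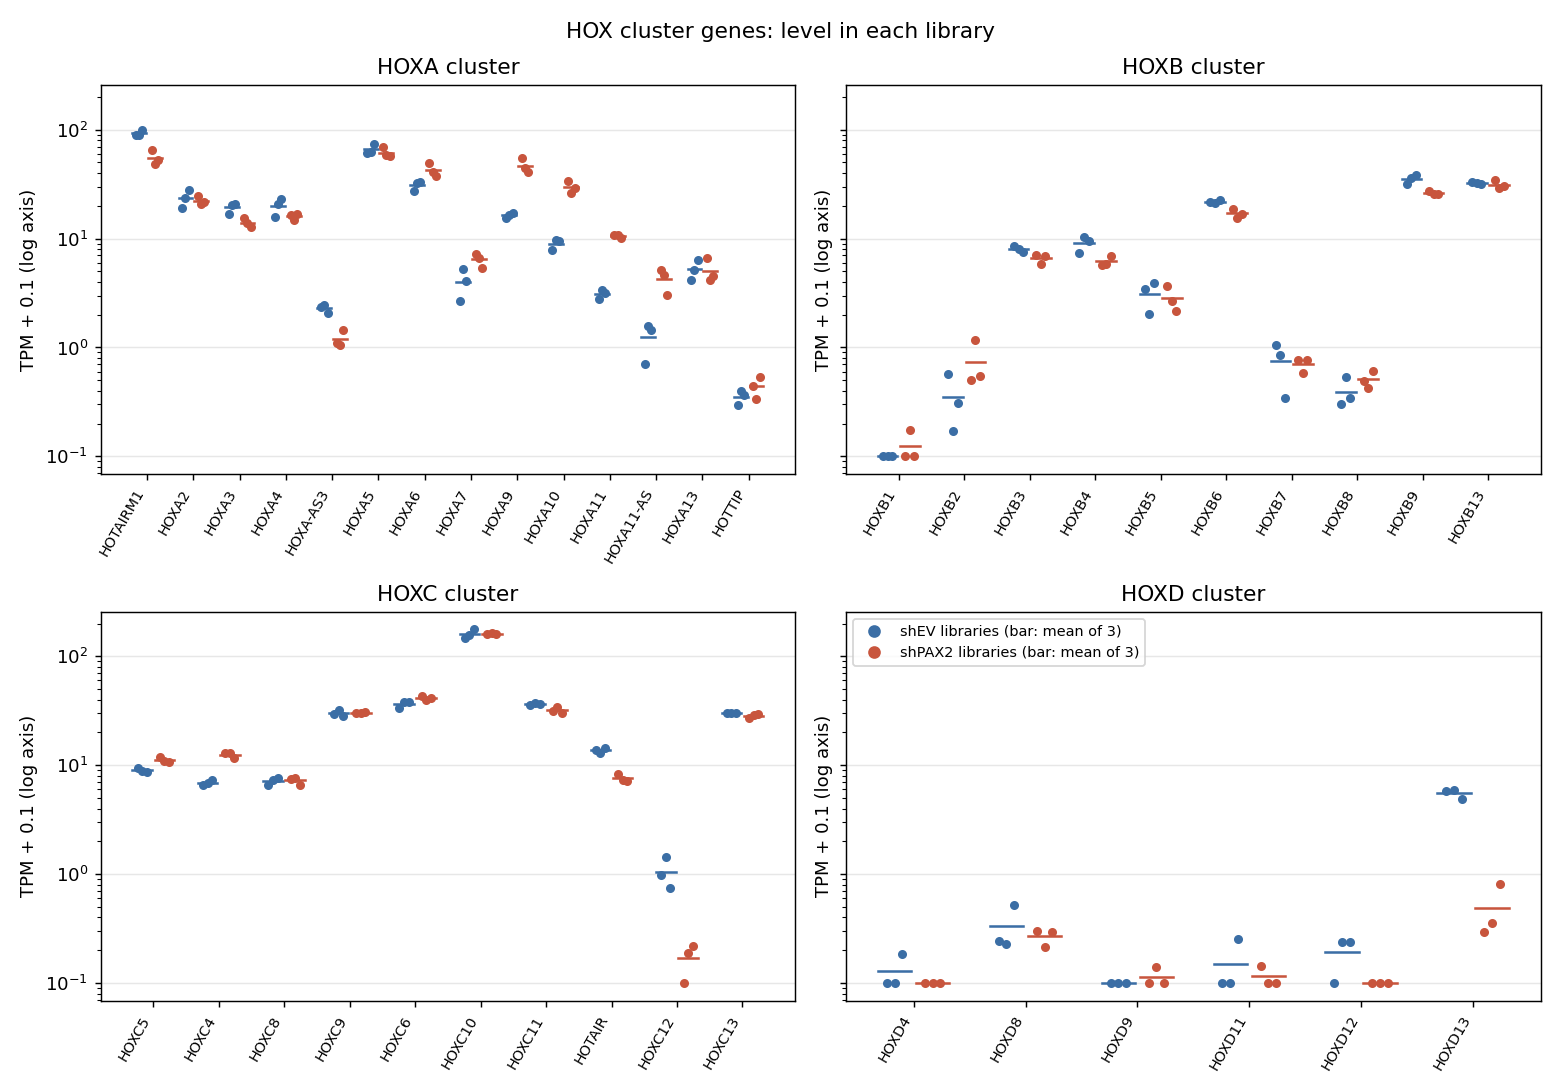
Level of the HOX cluster genes in the 6 libraries, 1 panel per cluster, with TPM + 0.1 on a log axis and genes ordered from the 3′ end of the cluster by annotated start. Points are libraries and bars the mean of 3; the shPAX2 points of *HOXA9*, *HOXA10*, *HOXA11* and *HOXA11-AS* lie above all shEV points, and those of *HOXD13* and *HOXC12* below them.

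Past the threshold, 4 members rose (*HOXA9*, *HOXA10*, *HOXA11* and *HOXA11-AS*), where 1.43% of all genes tested did, and 2 fell (*HOXD13* and *HOXC12*), where 3.11% of all genes did. The 4 that rose are neighbours in the 5′ part of HOXA. At an adjusted p under 0.05 alone, 8 of the 32 rose, beside 12.2% of all genes, and 10 fell, beside 30.5% of all genes, so on this scale the share of members that fell was near the background. The other 14 did not pass. Scaling by the median of ratios, which moved the median of all genes by 0.10, gave 10 that rose, beside 21.2% of all genes, and 9 that fell, beside 19.9%. Quantile normalization gave 10, beside 18.0%, and 7, beside 18.9%. In 22 of the 32, and in 54.9% of all genes tested, no shPAX2 library lay within the range of shEV. The median log2 fold change of the members was -0.05, against -0.10 over all genes. *HOXC12* passed the filter through its shEV libraries alone, so the counts describe the members tested and are no test of the family.

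**Figure D2:**
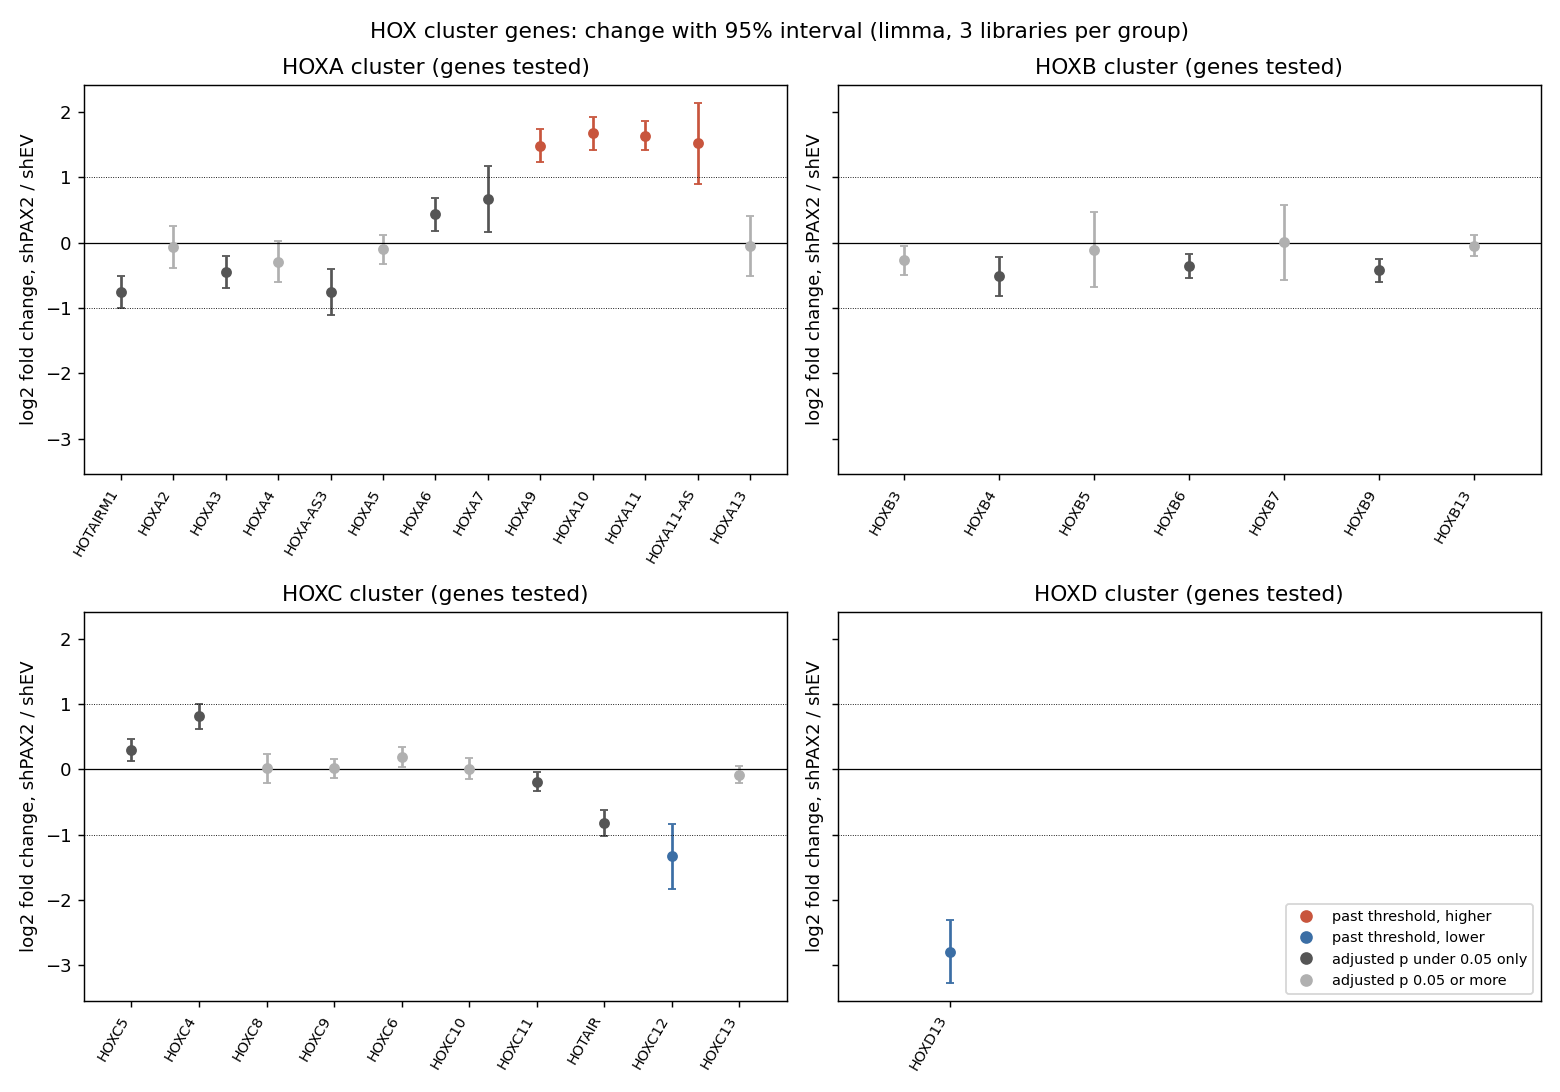
Log2 fold change of shPAX2 over shEV with its 95% interval for the members tested, ordered as in the levels plot, with colours for the call. In HOXA the values lie between -0.75 and -0.06 from *HOTAIRM1* to *HOXA5*, between 1.49 and 1.68 from *HOXA9* to *HOXA11-AS*, and at -0.04 at *HOXA13*.

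In the HOXA cluster, which spans 114 kb of chromosome 7, the 5′ genes *HOXA9*, *HOXA10* and *HOXA11* rose together. *HOXA10* (chr7:27210224-27219880, minus strand), the gene of the uterine segment, had 7.71, 9.62 and 9.31 TPM in shEV and 33.5, 25.9 and 29.3 TPM in shPAX2. The lowest shPAX2 library was well above the highest shEV library. The mean rose 3.33-fold, from 8.88 ± 1.02 to 29.5 ± 3.79 TPM, with a log2 fold change of 1.68 (SE 0.11, limma adjusted p = 1.25e-05). The reads behind these values were 132, 271 and 268 in shEV and 1632, 1112 and 911 in shPAX2.

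*HOXA9* (chr7:27202057-27214799, minus strand), known for the oviduct in development and as an oncogene in leukaemia, had 15.3, 16.2 and 17.2 TPM in shEV and 55.4, 44.4 and 40.5 TPM in shPAX2. The groups did not overlap, and shPAX2 replicate 1 was the highest. The mean was 2.88-fold higher in shPAX2, with a log2 fold change of 1.49 (SE 0.11, limma adjusted p = 2.66e-05). *HOXA9* moved from rank 15 to rank 4 among the members by mean TPM, and *HOXA10* from 19 to 10. The *HOXA10-HOXA9* readthrough row, which is not a member, had nearly the same TPM as *HOXA9*, with a ratio of 0.991 ± 0.0124 in shEV and 1.01 ± 0.0174 in shPAX2. Its log2 fold change was 1.51 (adjusted p = 1.61e-05). These rows share exons, so the reads of *HOXA9* and of the readthrough transcript cannot be told apart here.

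*HOXA11* (chr7:27220776-27224851, minus strand), which marks the lower uterus and is needed for uterine gland development, had 2.67, 3.28 and 3.09 TPM in shEV and 10.6, 10.7 and 9.93 TPM in shPAX2. Both groups were tight and far apart. The mean was 3.46-fold higher, from 3.01 ± 0.315 to 10.4 ± 0.437 TPM, with a log2 fold change of 1.64 (SE 0.10, limma adjusted p = 7.08e-06).

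*HOXA11-AS* (chr7:27224126-27228917, plus strand) is a noncoding RNA that, by these positions, starts within the span of *HOXA11* and runs the other way. It had 0.601, 1.46 and 1.36 TPM in shEV, from 5, 20 and 19 reads, and 5.06, 4.55 and 2.91 TPM in shPAX2, from 120, 95 and 44 reads. The groups did not overlap, although shPAX2 replicate 3 was lower than the other two. Its log2 fold change was 1.53 (SE 0.27, limma adjusted p = 0.003). In the gene models used here, *HOXA11* and *HOXA11-AS* share 726 exon bases on opposite strands. This is 27.2% of the exon bases of *HOXA11* and 23.2% of those of *HOXA11-AS*. The library kit keeps strand, but the strand setting of the counting is not given in the sources used here. Reads of *HOXA11* and *HOXA11-AS* may thus be mixed. In RefSeq, *HOXA11-AS* starts just past chr7:27225026, outside the span of *HOXA11*. The gene models behind the TPM rows may therefore not share the 726 bases. Of the other RNAs of the cluster that are no members, *HOXA-AS4* had a log2 fold change of 1.32 (limma adjusted p = 4.81e-05). In the same gene models it lies within the span of *HOXA9* on the opposite strand and overlaps *HOXA10*. It shares 422 exon bases with *HOXA9* and 608 with *HOXA10*. *HOXA-AS4* lies upstream of the RefSeq start used above for the *HOXA9* promoter, and the gene models behind the TPM rows may differ. The bases shared with *HOXA9* may thus not belong to the *HOXA9* row that was measured.

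*HOXA13*, the most posterior gene and the next beyond *HOXA11* on the 5′ side, had 4.07, 5.00 and 6.30 TPM in shEV and 6.52, 4.04 and 4.40 TPM in shPAX2. The groups overlapped, and the log2 fold change was -0.04, with a 95% interval from -0.50 to 0.42, which does not reach the value of any of the 4 members that rose. *HOTTIP*, a noncoding RNA at the 5′ end of HOXA known to recruit an activating methyltransferase complex to these genes, had 0.198, 0.301 and 0.265 TPM in shEV and 0.347, 0.237 and 0.436 TPM in shPAX2, too little to test. The ratio of *HOXA11* to *HOXA13* went from 0.601 ± 0.0957 in shEV to 2.18 ± 0.519 in shPAX2, and that of *HOXA9* to *HOXA13* from 3.25 ± 0.510 to 9.56 ± 1.28.

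On the 3′ side the values passed through smaller differences. *HOXA7*, a trunk-level gene, had 2.59, 5.11 and 3.96 TPM in shEV and 7.10, 6.59 and 5.29 TPM in shPAX2, and the lowest shPAX2 value lay just above the highest shEV value. Its log2 fold change was 0.67 (adjusted p = 0.0406), and this call held in 8 of 15 other processings. *HOXA6* had 27.4, 32.4 and 33.1 TPM in shEV and 48.9, 40.5 and 37.2 TPM in shPAX2, again without overlap. It rose with a log2 fold change of 0.43 (SE 0.11, limma adjusted p = 0.0148). In the gene models used here, *HOXA6* and *HOXA7* share 39.3% and 62.5% of their exon bases with *HOXA-AS3* on the other strand. The models behind the TPM rows may differ. *HOXA-AS3* went the other way, with 2.23, 2.36 and 1.97 TPM in shEV and 1.003, 0.943 and 1.35 TPM in shPAX2, a log2 fold change of -0.75 (adjusted p = 0.00427).

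The 3′ genes of HOXA, which pattern the hindbrain, neck and upper trunk, showed no common increase. *HOXA5* had 61.4, 62.1 and 74.3 TPM in shEV and 69.2, 57.9 and 57.6 TPM in shPAX2, *HOXA4* had 15.6 to 23.2 TPM and 14.9 to 16.5 TPM, and *HOXA2*, a regulator of the branchial arches, 18.9 to 27.8 TPM and 20.7 to 24.4 TPM. All 3 overlapped between the groups, with log2 fold changes of -0.10, -0.29 and -0.06 (adjusted p = 0.446, 0.117 and 0.745).

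*HOXA3*, a gene of thymus and parathyroid development, fell. It had 16.6, 20.3 and 20.7 TPM in shEV and 15.5, 13.7 and 12.6 TPM in shPAX2, a log2 fold change of -0.45 (SE 0.11, limma adjusted p = 0.00897). *HOTAIRM1* (chr7:27135266-27139884, plus strand), a noncoding RNA beside *HOXA2* known from myeloid cells, also fell. It had 89.7, 89.0 and 99.6 TPM in shEV and 64.6, 47.9 and 53.0 TPM in shPAX2, with a wide gap between the groups. Its mean in shPAX2 was 59.5% of that in shEV, with a log2 fold change of -0.75 (SE 0.11, limma adjusted p = 0.000855).

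**Figure D3:**
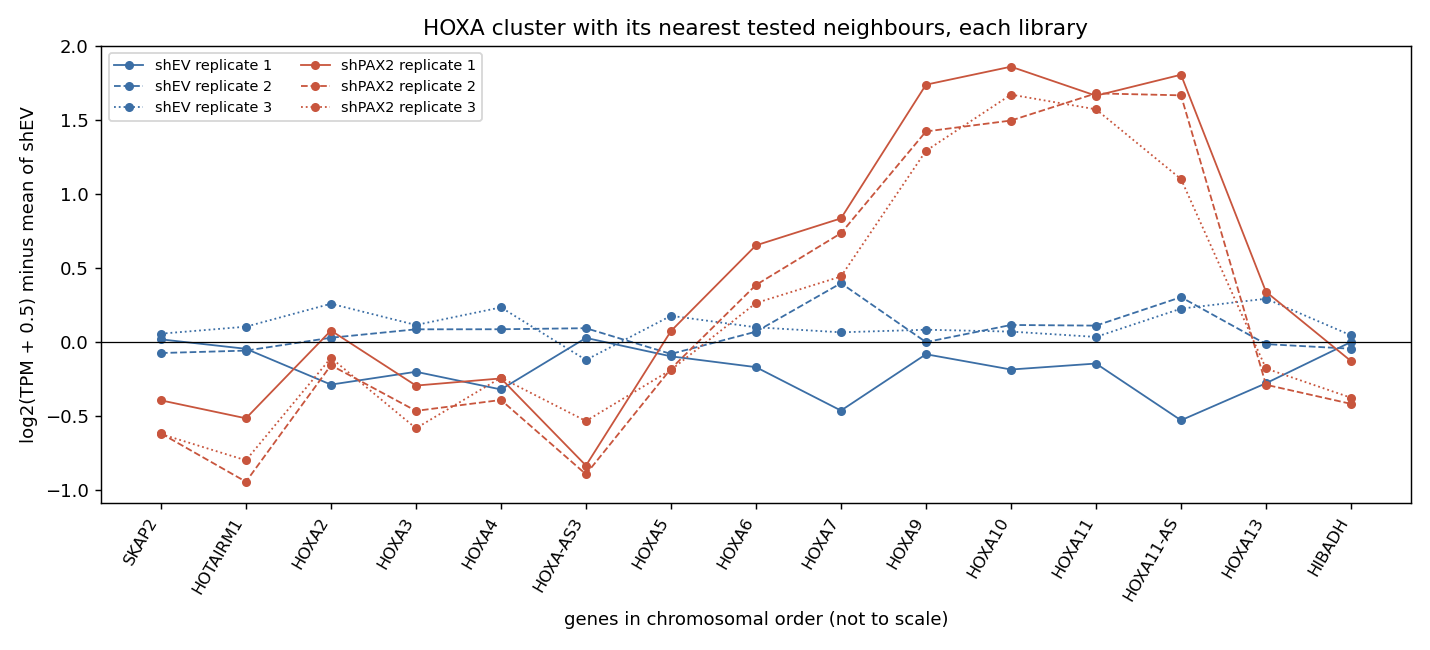
HOXA members tested and a nearby tested gene on either side, in chromosomal order and not to scale, as log2(TPM + 0.5) minus the mean of shEV, with 1 line per library. All 3 shPAX2 lines lie above all shEV lines from *HOXA6* to *HOXA11-AS* and meet them again at *HOXA13*.

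*HOXA9*, *HOXA10* and *HOXA11* together made up 14.2%, 14.1% and 13.02% of the summed coding HOXA TPM in shEV and 33.6%, 32.5% and 32.5% in shPAX2. The libraries of a group differed by little and the groups were far apart. The summed coding HOXA level was 181, 207 and 228 TPM in shEV and 296, 249 and 245 TPM in shPAX2. Over all 4 clusters the coding sum went from 638 ± 43.7 TPM in shEV to 680 ± 33.8 TPM in shPAX2, with overlapping ranges of 593 to 680 and 658 to 719 TPM.

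In the HOXC cluster, 117 kb of chromosome 12, *HOXC4* and *HOXC5* at the 3′ end rose, and *HOTAIR* towards the 5′ end fell. *HOXC11* and *HOXC12* were also called lower, with limits. The call of *HOXC11* held in 4 of 15 other processings, and *HOXC12* passed the filter through its shEV libraries alone. *HOXC4* (chr12:54410715-54449814, plus strand), the gene at the 3′ end, had 6.45, 6.82 and 7.24 TPM in shEV and 12.96, 12.8 and 11.5 TPM in shPAX2. The groups were far apart for their spread, and the mean was 1.82-fold higher. The log2 fold change was 0.82 (SE 0.08, limma adjusted p = 0.000117), under the fold threshold. *HOXC4* shares 484 exon bases on the same strand with *HOXC6*, 17.5% of its own. In RefSeq, *HOXC4* and *HOXC5* have the same promoter window (chr12:54410422-54410671). Their rows may thus share reads, which was not tested.

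Its neighbour *HOXC5* had 9.27, 8.82 and 8.63 TPM in shEV and 11.7, 10.8 and 10.7 TPM in shPAX2, and rose with a log2 fold change of 0.30 (SE 0.08, limma adjusted p = 0.0126). The ratio of *HOXC4* to *HOXC5* was 0.769 ± 0.0721 in shEV and 1.12 ± 0.0532 in shPAX2, so the order of these 2 genes turned. *HOXC6*, a thoracic-level gene, had 33.5, 37.9 and 37.8 TPM in shEV and 43.1, 39.9 and 41.2 TPM in shPAX2, without overlap, and a log2 fold change of 0.19 that did not pass (adjusted p = 0.0516).

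The middle of HOXC was flat. *HOXC8* and *HOXC9*, which act in the thoracic skeleton and motor neurons, had log2 fold changes of 0.02 each (adjusted p = 0.904 and 0.828), with means of 7.07 and 7.15 TPM for *HOXC8* and of 29.9 and 30.2 TPM for *HOXC9*. *HOXC10* had 0.01, with a 95% interval from -0.15 to 0.17. The 95% intervals of all 3 lay between -0.20 and 0.24 and did not reach the value of *HOXC4*.

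The 5′ side of HOXC holds *HOXC11*, *HOXC12* and *HOXC13* and, between *HOXC11* and *HOXC12* on the other strand, *HOTAIR*, a noncoding RNA known for binding Polycomb complexes. *HOTAIR* (chr12:54356092-54368740) had 13.6, 12.7 and 14.4 TPM in shEV and 8.18, 7.25 and 7.07 TPM in shPAX2, with no overlap. It fell to 55.2% of the shEV mean, with a log2 fold change of -0.82 (SE 0.09, limma adjusted p = 0.000136). *HOXC12*, expressed in hair follicles and nails, had 0.878, 1.33 and 0.652 TPM in shEV, from 4, 10 and 5 reads, and 0, 0.0874 and 0.121 TPM in shPAX2, from 0, 1 and 1 reads. Every shPAX2 library was at the floor of 3 reads although these were the deeper libraries, and against that floor the shPAX2 level was at least 3.35-fold lower. Its fitted log2 fold change was -1.33 (SE 0.22, limma adjusted p = 0.00161), a value that rests on few reads and moves with the pseudocount. It was -2.66 with a pseudocount of 0.1, -0.86 with 1 and -3.32 with voom on the reads. Leaving out any 1 of shEV replicates 1, 2 and 3 took *HOXC12* below the filter, and it was then not tested. *HOXC11*, active in the hindlimb, had 35.7, 36.9 and 36.0 TPM in shEV and 31.2, 34.1 and 29.9 TPM in shPAX2, with a log2 fold change of -0.19 (SE 0.06, limma adjusted p = 0.0415), a call that held in 4 of 15 other processings. *HOXC13*, a hair and nail gene, had 29.8, 29.8 and 30.2 TPM in shEV and 26.9, 28.9 and 29.3 TPM in shPAX2, with a log2 fold change of -0.08 (adjusted p = 0.32).

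HOXB, 200 kb of chromosome 17, had no member past the threshold, and the members that passed the test fell. *HOXB9*, a gene of the rib cage and mammary gland, had 31.4, 36.0 and 38.2 TPM in shEV and 27.0, 25.7 and 25.7 TPM in shPAX2. The mean went from 35.2 ± 3.49 to 26.1 ± 0.734 TPM, with a log2 fold change of -0.42 (SE 0.08, limma adjusted p = 0.00283). *HOXB6* had 21.3, 21.2 and 22.7 TPM in shEV and 18.7, 15.4 and 16.7 TPM in shPAX2, a log2 fold change of -0.36 (SE 0.08, limma adjusted p = 0.00718). In both genes all shPAX2 libraries lay below all shEV libraries.

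*HOXB4*, known for expanding blood stem cells, had 7.33, 10.1 and 9.37 TPM in shEV and 5.56, 5.80 and 6.86 TPM in shPAX2, a log2 fold change of -0.52 (SE 0.13, limma adjusted p = 0.012). This call held in 13 of 15 other processings. *HOXB3* had 8.49, 7.88 and 7.38 TPM in shEV and 6.95, 5.78 and 6.77 TPM in shPAX2, without overlap, and did not pass (log2 fold change -0.27, adjusted p = 0.0567). *HOXB3* and *HOXB6* share 433 exon bases on the same strand, 16.6% of those of *HOXB6*.

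*HOXB13* stands apart from the rest of its cluster on the chromosome and is best known in the prostate and hindgut. It had 33.3, 31.9 and 31.5 TPM in shEV and 34.3, 29.3 and 30.1 TPM in shPAX2, a log2 fold change of -0.05 with a 95% interval from -0.21 to 0.12. *HOXB5* (log2 fold change -0.10, adjusted p = 0.765) and *HOXB7* (0.00, adjusted p = 0.991) were low and overlapped, with means of 3.02 and 2.75 TPM and of 0.648 and 0.611 TPM. The summed coding HOXB level went from 110 ± 3.42 to 91.3 ± 5.67 TPM.

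*HOXD13* (chr2:176957449-176960672, plus strand), the gene of the most posterior position in HOXD and of digit formation, had the lowest log2 fold change of the members. It had 5.68, 5.88 and 4.81 TPM in shEV and 0.197, 0.255 and 0.705 TPM in shPAX2, from 71, 121 and 101 reads and 7, 8 and 16 reads. The groups were far apart, and shPAX2 replicate 3 kept the most. The mean fell to 7.06% of that in shEV, from 5.46 ± 0.573 to 0.385 ± 0.278 TPM, with a log2 fold change of -2.79 (SE 0.21, limma adjusted p = 2.25e-05). Since *HOXD13* supplied nearly all coding HOXD TPM, the cluster sum went from 5.86 ± 0.277 to 0.582 ± 0.275 TPM. Its rank among the members went from 24 to 33. The genes at position 13 of the other clusters, *HOXA13*, *HOXB13* and *HOXC13*, did not pass the test. At positions 9 to 11 the HOXA genes rose while *HOXB9* fell and *HOXC9* and *HOXC10* did not pass. *HOXC11* had a small decrease (log2 fold change -0.19), a call that held in 4 of 15 other processings.

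Genes around the clusters were looked at for differences like those inside them. *SKAP2*, the nearest tested gene on the 3′ side of HOXA, had 74.8, 70.1 and 76.8 TPM in shEV and 56.1, 47.9 and 47.8 TPM in shPAX2 (log2 fold change -0.54, adjusted p = 0.000617), and *HIBADH* on the 5′ side had -0.31 (adjusted p = 0.0142). Within 1 Mb of HOXA, none of the 8 genes tested rose, where 12.2% of all genes did, and 4 fell, where 30.5% did, with a median log2 fold change of -0.20. Of these *JAZF1* was past the threshold, at -1.22. The 4 genes tested around HOXD had a median of -0.20 and a lowest value of -0.40, far from that of *HOXD13*. Around HOXC 2 of 29 genes tested rose and 12 fell, beside the same 12.2% and 30.5%, with a median of -0.20. *IGFBP6* was past the threshold at -1.73. Around HOXB 3 of 24 rose and 4 fell, with a median of -0.02. *OSBPL7* (1.09), *TTLL6* (1.93) and *NGFR* (-1.52) were past the threshold there. Over all genes tested, 1.43% were past it upwards and 3.11% downwards. The flanking genes past the threshold were named after their values were seen, apart from *TTLL6*. Beside *HOXB13*, *TTLL6*, a tubulin-modifying enzyme gene, had 2.45, 1.52 and 1.86 TPM in shEV and 10.6, 7.47 and 8.34 TPM in shPAX2, a log2 fold change of 1.93 (SE 0.17, limma adjusted p = 4.76e-05), while *HOXB13* itself did not pass. In a list of 24 flanking genes, 21 were tested, of which 2 rose and 6 fell, again beside 12.2% and 30.5% of all genes, among them *CHN1* near HOXD, from 32.8 to 23.5 TPM (-0.47, adjusted p = 0.000356).

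HOX proteins bind DNA together with cofactors of the TALE homeodomain class, the PBX, MEIS and PKNOX proteins. Of 9 such genes 8 were tested, with 1 that rose (12.2% of all genes did), 5 that fell (30.5% of all genes did) and a median log2 fold change of -0.41 beside -0.10 over all genes. *MEIS2* had 43.6, 43.7 and 47.1 TPM in shEV and 26.7, 22.7 and 22.5 TPM in shPAX2 (log2 fold change -0.89, SE 0.08, limma adjusted p = 4.7e-05). The 1 gene that rose, named after its values were seen, was *PBX2* (0.42). It lies on chromosome 6, where the median over 630 genes tested was 0.39, against -0.12, -0.13, -0.10 and -0.07 on chromosomes 2, 7, 12 and 17, which hold the HOX clusters. The same chromosome holds *RXRB* (0.37) and *PHF1* (0.44), which are counted among the genes that rose in the retinoic acid and Polycomb lists below, and the part of that shift in their values was not tested. In a list of 15 other homeobox genes related to HOX, 6 were tested, none rose and 5 fell, beside 30.5% of all genes, with *MEOX2*, a mesoderm regulator, at 279 and 173 TPM (-0.68, adjusted p = 0.000516) and *EN2*, a midbrain and hindbrain gene, at 9.23 and 6.33 TPM (-0.51, adjusted p = 0.00453).

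HOX clusters are held silent by Polycomb complexes and kept active by trithorax-group proteins. Of 28 Polycomb genes tested, none was past the threshold, 4 rose (beside 12.2% of all genes) and 12 fell (beside 30.5%), with a median of -0.15, so the share that rose was near the background. *PCGF5*, a subunit of a variant Polycomb repressive complex, had 10.98, 11.2 and 12.01 TPM in shEV and 5.90, 5.63 and 6.60 TPM in shPAX2 (log2 fold change -0.86, adjusted p = 0.000111). Of 12 trithorax-group genes tested, none rose and 4 fell, a share near the 30.5% of all genes that fell. *MLLT3*, a partner of the MLL elongation machinery, had 22.5, 26.6 and 30.2 TPM in shEV and 11.8, 9.71 and 11.2 TPM in shPAX2 (log2 fold change -1.23, SE 0.11, limma adjusted p = 7.23e-05), and *KDM6B*, which removes the Polycomb mark, went from 5.63 to 3.14 TPM (-0.75, adjusted p = 0.000738).

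Retinoic acid switches on 3′ HOX genes first in the embryo. Of 18 genes of its synthesis, breakdown and receptors, 9 were tested, of which 2 rose and 5 fell, beside 12.2% and 30.5% of all genes, with a median of -0.18. *DHRS3*, which turns retinal back to retinol, went from 75.4 to 54.0 TPM (-0.48, adjusted p = 0.00207). The lists are described beside the HOX values, and no test linked them.

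**Figure D4:**
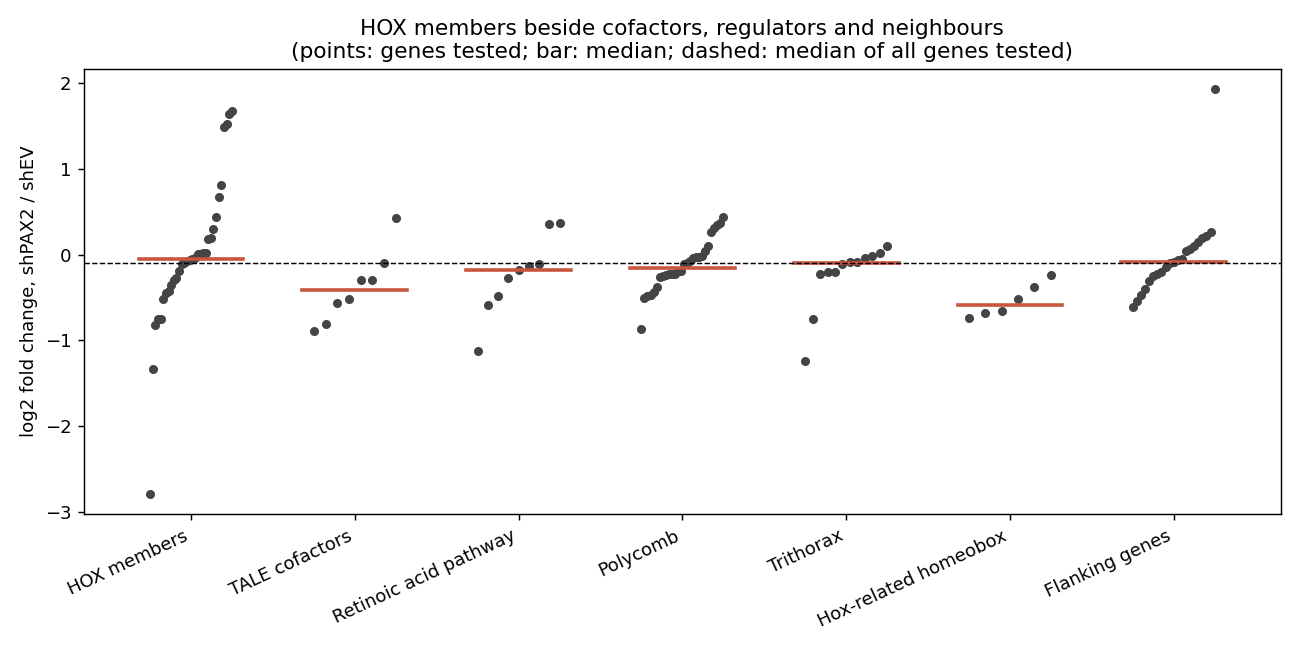
Log2 fold change of shPAX2 over shEV for the HOX members tested and for the tested genes of 6 lists, with 1 point per gene, a bar at each median and a dashed line at the median of all genes tested (-0.10). The HOX members spread from -2.79 to 1.68, and their median of -0.05 lies close to the dashed line.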

How the data were processed

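RNA-seq was performed on 6 AN3CA libraries, 3 of shEV and 3 of shPAX2, made from total RNA with a stranded kit. The authors deposited TPM values for 17471 genes named by symbol. The submitters' processing notes name bcl2fastq, STAR, Subread, featureCounts, edgeR and hg19 (GRCh37) without roles or versions, and the strand setting of the counting is not given in the sources used here. In 100% of genes the deposited TPM values of the 6 libraries stood in whole-number proportions (tolerance 1e-12). This gave reads per gene, except for any factor that all 6 libraries of a gene share, and so the depth, which limits the precision of genes with few reads.

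Values were tested with limma 3.58.1 in R 4.3.3 (linear model, empirical Bayes with trend and robust, two-sided) on log2(TPM + 0.5) for all genes with at least 0.5 TPM in at least 3 libraries, with Benjamini-Hochberg adjustment over all 13163 genes tested and no covariate. The script was tested on simulated data. Full statistics are given for members past the threshold, for members at an adjusted p under 0.05 with a mean of at least 5 TPM, and for the list genes past the threshold or with the 2 lowest adjusted p of their list. Members under the filter are given as reads. The floor was 3 reads per library. Members and gene lists were chosen with earlier results of these data known. Alternatives were pseudocounts of 0.1 and 1, other filters, median-of-ratios and quantile scaling, empirical Bayes without trend and robust, voom on the recovered reads, a replicate block and leaving out each library. Gene positions and exons are from GENCODE lifted to GRCh37, with 15324 symbols matched directly and 1238 through a synonym. Promoter starts are from RefSeq. Shared exon bases are counted in the GENCODE gene models, which may differ from those behind the TPM values. Amino acid sequences were not used here. A few genes, members and list genes alike, are counted in the totals but not reported here by name or in the plots that label genes.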

Additional observations from a re-analysis of the deposited data

How the results depend on the processing

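Under 15 alternatives, *HOXA9*, *HOXA10*, *HOXA11*, *HOXA11-AS* and *HOXD13* kept their direction and their call, with log2 fold changes of 1.36 to 1.62, 1.58 to 1.83, 1.51 to 1.88, 1.26 to 1.95 and -3.96 to -2.24. The count of members past the threshold downwards went from 2 to 1 with a pseudocount of 1, where *HOXC12* had -0.86 (-2.66 with a pseudocount of 0.1 and -3.32 with voom), with a filter at 1 TPM, and without shEV replicate 1, 2 or 3 in turn, where *HOXC12* was not tested (1 to 2 over the fits that left out a library). The median of the members went from -0.05 to 0.0486 with median-of-ratios scaling, 0.0392 with quantile normalization and 0.0446 with voom, in each case with the median of all genes. Quantile normalization took *HOXC4* past the threshold (1.02). At an adjusted p under 0.05, *HOXA7* held in 8 alternatives, *HOXC11* in 4, *HOXB4* in 13, and *HOXA3* and *HOXA6* in 14 each.

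Signs turned only in members that had not passed the test. With median-of-ratios scaling these were *HOXC13* (0.0276), *HOXB13* (0.0587), *HOXA2* (0.0426), *HOXA5* (0.0082) and *HOXA13* (0.0546), with quantile normalization *HOXC13* (0.0134), *HOXC10* (-0.0020), *HOXB5* (0.158), *HOXB13* (0.0308), *HOXA2* (0.0477) and *HOXA13* (0.195), with voom *HOXC13* (0.0219), *HOXB5* (0.0517), *HOXB13* (0.0676), *HOXA2* (0.0125), *HOXA5* (0.0044) and *HOXA13* (0.0376), and with a pseudocount of 1 *HOXB7* (-0.0088). Over the fits that left out 1 library each, the values crossed 0 and ranged from -0.0482 to 0.0818 for *HOXC10*, -0.0455 to 0.0755 for *HOXC8*, -0.0249 to 0.0663 for *HOXC9*, -0.352 to 0.0557 for *HOXB5*, -0.281 to 0.203 for *HOXB7*, -0.206 to 0.0674 for *HOXA2* and -0.234 to 0.104 for *HOXA13*. The cause of these turns was not tested.

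Same-numbered libraries showed no shared deviation (correlations of -0.0523, 0.0815 and 0.0014). With so few libraries this cannot tell whether same-numbered libraries were handled together. With the replicate block, 588 genes were past the threshold in place of 598. All 6 members past it were among them, with 4 that rose and 2 that fell. At an adjusted p under 0.05 alone 6 members rose and 9 fell, in place of 8 and 10. The share of all genes called in that fit was not worked out, so these counts are not set against a background. Depth limits *HOXC12*, *HOTTIP*, *HOXB1*, *HOXB2*, *HOXB8* and the *HOXD* genes other than *HOXD13*, for which a difference was not detectable or rests on few reads.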
